A study of Homo sapiens with 9 samples.

Results

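Levels of 7 genes of adhesion scaffolds and of the secretory pathway were followed in RNA sequencing of DIP2C knockout cells, out of 23619 gene symbols measured. The genes were the tensins TNS1, TNS3 and TNS4, the LL5 proteins and their relative PHLDB1, PHLDB2 and PHLDB3, and FAM198B, which current annotation calls GASK1B. TNS4, PHLDB2 and FAM198B were selected on these data, for a loss in every knockout clone, and the other 4 are paralogs of TNS4 or PHLDB2. Values of the 3 selected genes are therefore a description without a test, and the paralogs were tested. All 7 genes were among the 15532 that passed the filter on low counts.

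RKO cells come from a human colorectal carcinoma. Parental RKO cells were compared with clones in which recombinant adeno-associated virus had been used to delete part of DIP2C exon 9, to ask whether the loss of DIP2C changes gene expression. There were 2 parental samples, 2 DIP2C-/- clones (E3 and C10) and 5 DIP2C+/- clones (H9-A4, F6-A7, A6-C9, A9-A12 and G1-A5), each grown for 48 h without further treatment and sequenced once. Per the methods of the study, the DIP2C-/- clones were made by another round of targeting in a single DIP2C+/- clone, so they share an ancestor, and clones were grown from single cells after drug selection and removal of the selection cassette. No clone that went through targeting with DIP2C intact is in the set, so clonal isolation and the loss of DIP2C cannot be told apart. The study's text describes fewer DIP2C+/- clones than the labels give, and whether each labelled clone came from a separate targeting event is not given in the sources used here. Nothing states that the parental samples were separate cultures, and p-values measure only the spread between these samples.

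Tensins are cytoplasmic proteins of integrin adhesions. They bind the tails of beta integrins, and TNS1, TNS2 and TNS3 also bind actin filaments, whereas TNS4 (cten) is short and lacks the actin-binding region. PHLDB1 and PHLDB2 (LL5-alpha and LL5-beta) bind phosphoinositides through a pleckstrin homology domain and take part in a cortical platform beside focal adhesions that captures microtubule ends, PHLDB3 is a less studied relative, and FAM198B encodes a Golgi membrane protein related to secretory kinases.

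The deposited estimated counts summed to between 14772593 and 21486483 per sample. A value of 3 counts, taken as the limit of detection, corresponded to 0.14 to 0.203 counts per 1000000 before TMM scaling. Levels of genes are given in CPM (counts per 1000000, scaled by TMM factors). DIP2C itself was at 61.0 and 70.9 CPM in the parental samples, at 17.4 and 22.8 CPM in the DIP2C-/- clones and at 33.7 to 56.3 CPM in the DIP2C+/- clones, of which H9-A4 was the highest. H9-A4 stood apart from the other clones. It had 40 genes at least 4-fold above the parental mean, against 126 to 239 in the other 6 clones, and is left out in a repeat of each fit given here. Of 10 colorectal epithelial markers, only KRT8, KRT18 and CDX2 reached 1 CPM in both parental samples. EPCAM was at 1.05 and 0.37 CPM in the parental samples, at 3.79 CPM in H9-A4 and under 1 CPM in the other clones, and KRT19, KRT20, CDH1, CDX1, VIL1 and LGALS4 reached 1 CPM in no sample. The 7 fibroblast markers summed to 5.73 to 7.57 CPM in parental cells and 4.19 to 7.98 CPM in the clones, with DCN under 1 CPM throughout. Among leukocyte markers, PTPRC, CD3E and CD14 were under 1 CPM in every sample. CD68 was at 85.9 and 86.1 CPM in parental cells, at 464.8 to 673.6 CPM in 6 clones and at 16.2 CPM in H9-A4, and its part in the results was not tested. In bulk RNA, fewer cells that express a gene and less RNA per cell cannot be told apart.

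Sequence upstream of the selected genes is shown because PHLDB2 and FAM198B, both low in every clone, have listed starts of unlike CpG content. RefSeq on GRCh38.p14 lists 4 start windows for PHLDB2 and 2 for FAM198B, each 300 bases long from 250 bases before the start. TNS4 had no match. The lines give the 250 bases before the PHLDB2 starts with the fewest and the most CpGs and before 1 FAM198B start, 5′ to 3′ on the strand of the gene, with CpG dinucleotides in capitals. They lie at chr3:111732246-111732495 and chr3:111859577-111859826 on the plus strand and at chr4:158173026-158173275 on the minus strand.
PHLDB2 window 1: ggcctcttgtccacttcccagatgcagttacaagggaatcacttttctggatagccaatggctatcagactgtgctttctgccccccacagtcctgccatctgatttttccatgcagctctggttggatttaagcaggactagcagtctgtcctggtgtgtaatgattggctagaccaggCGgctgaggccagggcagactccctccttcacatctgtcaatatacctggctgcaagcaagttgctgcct
PHLDB2 window 4: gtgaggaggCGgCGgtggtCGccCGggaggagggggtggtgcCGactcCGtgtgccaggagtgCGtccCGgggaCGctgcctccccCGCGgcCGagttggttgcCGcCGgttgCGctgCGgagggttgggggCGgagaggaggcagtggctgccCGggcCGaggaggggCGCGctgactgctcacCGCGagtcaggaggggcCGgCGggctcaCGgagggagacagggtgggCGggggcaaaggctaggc
FAM198B window 2: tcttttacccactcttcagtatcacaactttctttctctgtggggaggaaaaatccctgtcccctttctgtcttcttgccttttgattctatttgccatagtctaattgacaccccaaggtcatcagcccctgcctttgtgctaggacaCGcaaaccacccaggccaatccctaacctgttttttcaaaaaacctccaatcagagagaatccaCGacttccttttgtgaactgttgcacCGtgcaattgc

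The CpG content of PHLDB2 differed widely between its starts. Over the full windows its 4 starts held 1, 9, 14 and 34 CpGs and the 2 starts of FAM198B held 2 and 3, against a median of 14 over 35116 windows of this length, with the 10th and 90th percentiles at 1 and 37. Both FAM198B starts were thus in the poorer part of this distribution, with fewer CpGs in only 11.0% and 18.2% of windows. The TATA box letters TATAAA were searched on both strands and were found in window 2 of FAM198B, past the stretch shown, and in window 2 of PHLDB2, against 11.5% of all windows. The GC box letters GGGCGG occurred 3 times in window 4 of PHLDB2 and once each in its windows 2 and 3, and 45.0% of windows hold at least 1. The E-box letters CACCTG were in windows 2 and 3 of PHLDB2, which overlap each other, and in 20.6% of all windows, and the TEAD letters CATTCC in no window of PHLDB2 or FAM198B and in 4928 of the 35116. The AP-1 letters TGANTCA were in none of the 17 windows of the 6 members that have one, and in 7.7% of all windows. The gene-level values do not say which start was in use in any sample.

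Per kb of canonical transcript, TNS4 was the most abundant member in parental RKO, and it was the member with the largest difference. On GRCh37 it spans bases 38632080 to 38657875 of chromosome 17 (minus strand). Its level was 178.3 and 166.2 CPM in the parental samples, 0.71 and 0.31 CPM in E3 and C10, and 1.19, 0.61, 0.41, 0.38 and 0.25 CPM in H9-A4, F6-A7, A6-C9, A9-A12 and G1-A5. Every clone was thus at 0.1% to 0.7% of the parental mean. The clone values stand on 6 to 29 reads, against 4179 and 2856 reads in the parental samples, so TNS4 was still above the limit of detection in each clone. The mean log2 fold change over the 7 clones was -8.16, the lowest of all 15532 genes tested. That rank is no result, since TNS4 was selected for such a loss. The fitted difference was -8.42 ± 0.58 (SE) on the log2 scale for DIP2C-/- and -8.26 ± 0.38 for DIP2C+/-, and without H9-A4 it was -8.43 ± 0.34 and -8.72 ± 0.26.

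PHLDB2 spans bases 111451344 to 111695364 of chromosome 3 (plus strand). It was at 57.6 and 58.8 CPM in parental cells, at 1.94 and 6.22 CPM in E3 and C10, and at 10.9, 0.97, 4.80, 2.85 and 4.43 CPM in the DIP2C+/- clones in the same order as for TNS4. All clones were below both parental samples, at 1.7% to 18.8% of the parental mean, and the clones themselves differed by 3.35 on the log2 scale from the lowest, F6-A7, to the highest, H9-A4. The parental samples differed by 0.03 on that scale. The fitted log2 difference was -3.82 ± 0.87 for DIP2C-/- and -3.60 ± 0.61 for DIP2C+/-, and -3.81 ± 0.62 and -4.14 ± 0.48 without H9-A4. Its annotated span overlaps PLCXD2 on the same strand, so how reads of the overlap were assigned is uncertain. PLCXD2 was at a mean of 6.35 CPM in parental cells, with clones from 0.74 below to 0.57 above that on the log2 scale.

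FAM198B was low in every clone as well. It spans bases 159045626 to 159094470 of chromosome 4 (minus strand). Its level was 8.65 and 6.06 CPM in the parental samples, 0.52 and 0.16 CPM in E3 and C10, and 0.34, 0.55, 0.46, 0.59 and 1.33 CPM in the DIP2C+/- clones in that order. TNS4, PHLDB2 and FAM198B were selected for a loss in every clone, so their gap to the parental samples is no result. In C10 the value stands on 3 reads, against 307 in the parental samples together, which is 2.06% of the parental level with a 95% exact interval of 0.42% to 6.09%. This interval covers counting error only. The fitted log2 difference was -4.46 ± 0.78 for DIP2C-/- and -3.47 ± 0.52 for DIP2C+/-, and -4.465 ± 0.73 and -3.31 ± 0.52 without H9-A4.

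**Figure D1:**
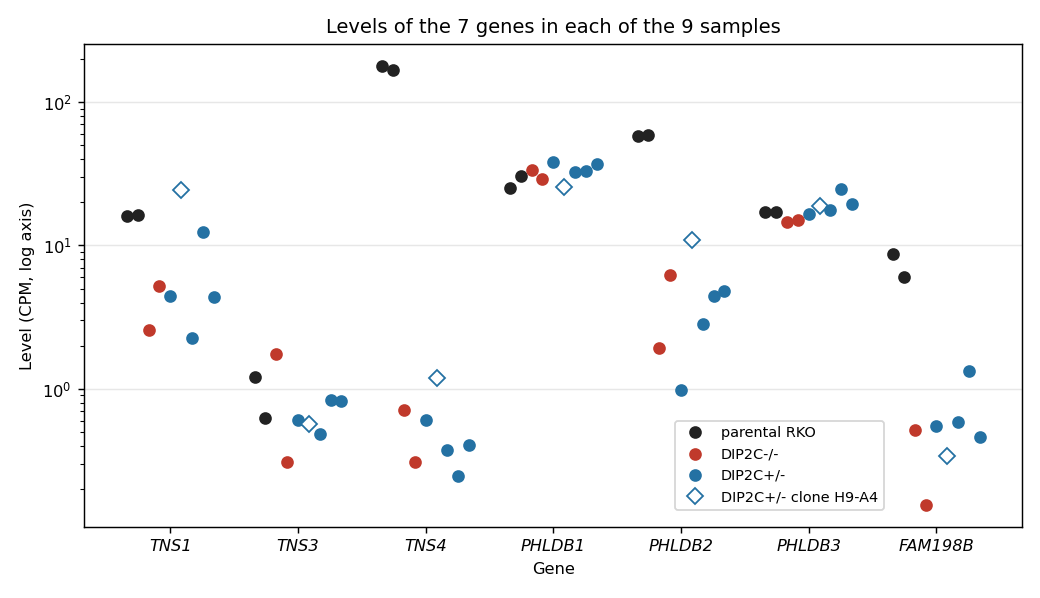
Level of each of the 7 genes in each of the 9 samples, in CPM on a log axis, with 1 point per sample, coloured by genotype, and clone H9-A4 as an open diamond. TNS4, PHLDB2 and FAM198B, selected for a loss in every clone, show a gap between the 2 parental samples and all 7 clones. TNS1 shows 1 clone above the parental samples, and the PHLDB1 and PHLDB3 points lie within a narrow band.

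Complete separation of the clones from both parental samples on the low side was found for 861 of 15532 genes, or 5.54%. A level at least 4-fold below the parental mean in all 7 clones was found for 14 genes, or 0.0901%. Since TNS4, PHLDB2 and FAM198B were selected for such a loss, their place among the 14 is no result. Their order among these genes is likewise a description only. By its least affected clone, TNS4 stood at -7.05 on the log2 scale and ZNF569, the next, at -3.59. PHLDB2 and FAM198B, at -2.40 and -2.35, were the 11th and the 12th in that order, followed by LOC643723 at -2.08 and SNAR-F at -2.01.

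The clones with the smallest and largest differences were not the same for the 3 selected genes. Among the 7 clones, Pearson's r of log2 CPM was 0.07 between TNS4 and PHLDB2, -0.28 between TNS4 and FAM198B and -0.33 between PHLDB2 and FAM198B. H9-A4 had the smallest difference of the 7 clones in TNS4 (-7.05) and PHLDB2 (-2.40) but, with 9 reads, the next to largest in FAM198B (-4.03). G1-A5 had the largest in TNS4 (-8.92) and the smallest in FAM198B (-2.35). These values are single clones without replicates, and those of TNS4 and FAM198B rest on few reads.

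**Figure D2:**
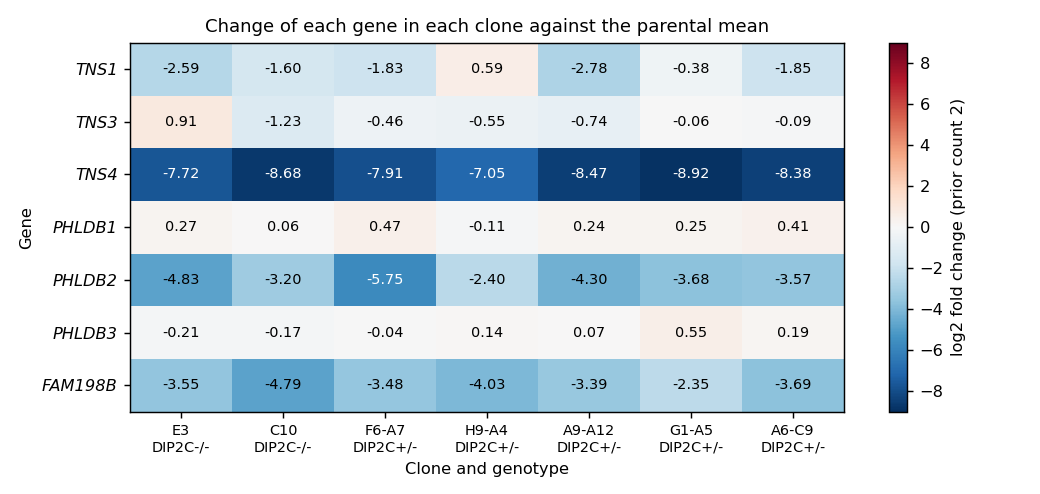
Log2 fold change of the 7 genes (rows) in each of the 7 clones (columns) against the mean of the parental samples, from CPM with a prior count of 2, with the value printed in each cell. The TNS4, PHLDB2 and FAM198B rows are negative in every clone, TNS1 is negative in 6 of 7 clones, and no value of PHLDB1 or PHLDB3 passes 0.55 in size.

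TNS1, the founding tensin and an actin-binding protein of mature adhesions, was the paralog with the largest differences. It spans bases 218664311 to 218898705 of chromosome 2 (minus strand). Its level was 15.97 and 16.2 CPM in the parental samples, 2.58 and 5.23 CPM in E3 and C10, and 24.2, 4.45, 4.39, 2.25 and 12.3 CPM in the DIP2C+/- clones. In all, 6 clones were below both parental samples, but H9-A4 was above them, at 150.5% of the parental mean. With all 9 samples the difference did not pass the test in DIP2C-/- clones, at -2.04 ± 0.93 (log2, SE; adjusted p = 0.397), or in DIP2C+/- clones, at -0.76 ± 0.72 (adjusted p = 0.720; edgeR's quasi-likelihood test with Benjamini-Hochberg adjustment throughout). Without H9-A4 the differences were -2.03 ± 0.65 (adjusted p = 0.110) and -1.46 ± 0.52 (adjusted p = 0.121). TNS1 passed the test when only the parental samples and the DIP2C-/- clones were fitted, at -2.05 (adjusted p = 0.00418), where 1807 of 14381 genes passed.

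TNS3, which like TNS1 carries an actin-binding region, was scarcely detected. It spans bases 47314752 to 47622156 of chromosome 7 (minus strand). Its level was 1.21 and 0.63 CPM in the parental samples, 1.74 and 0.31 CPM in E3 and C10, and 0.48 to 0.84 CPM in the DIP2C+/- clones. The 2 clones of 1 genotype thus lay above and below both parental samples. The differences were 0.14 ± 0.74 for DIP2C-/- (adjusted p = 0.956) and -0.46 ± 0.61 for DIP2C+/- (adjusted p = 0.815), both smaller than their errors.

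The other tensin, TNS2, stands in the files as TENC1, on the plus strand of chromosome 12 from 53440753 to 53458163, and is no member of the set. It was at 5.67 and 4.28 CPM in parental cells and at 3.10 to 6.44 CPM in the clones. Per length of the canonical transcript, TNS4 made up 93.8% and 94.1% of the summed level of the 4 tensins in the parental samples and 3.0% to 10.6% in the clones. The summed level was 43.2 to 46.5 CPM per kb in parental cells and 1.54 to 3.53 CPM per kb in the clones. The clones therefore retained mostly TENC1, at 23.1% to 78.0%, and TNS1, at 12.8% to 66.5%, with the highest TNS1 level, 2.35 CPM per kb, in H9-A4.

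PHLDB1 and PHLDB3 were expressed at similar levels in all samples. PHLDB1 spans bases 118477155 to 118528741 of chromosome 11 (plus strand), and was at 25.2 and 30.4 CPM in the parental samples, 33.5 and 28.9 CPM in E3 and C10, and 25.7, 38.4, 36.8, 32.7 and 33.1 CPM in the DIP2C+/- clones. Of the 7 clones, 5 were above both parental samples, but neither difference passed the test (0.16 ± 0.22, adjusted p = 0.800, and 0.26 ± 0.19, adjusted p = 0.616). TREH overlaps PHLDB1 on the opposite strand and was at 0.27 CPM in parental cells.

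PHLDB3 spans bases 43979106 to 44009087 of chromosome 19 (minus strand). It was at 17.0 CPM in both parental samples, at 14.6 and 15.0 CPM in E3 and C10, and at 18.7, 16.5, 19.4, 17.8 and 24.9 CPM in the DIP2C+/- clones. Both DIP2C-/- clones were below the parental level and 4 of the 5 DIP2C+/- clones above it, with G1-A5 the highest. The differences were -0.19 ± 0.23 (adjusted p = 0.766) and 0.20 ± 0.20 (adjusted p = 0.736).

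Per length of the canonical transcript, the PHLDB genes contributed more evenly than the tensins in parental cells. PHLDB2 made up 43.5% and 44.9% of their summed level in the parental samples and 1.1% to 12.6% in the clones, while the sum was 21.2 to 22.4 CPM per kb in parental cells and 12.6 to 17.2 CPM per kb in the clones. In the clones PHLDB3 held 48.5% to 60.4% and PHLDB1 32.9% to 50.1%. The level of PHLDB1 was 4.63 to 5.58 CPM per kb in parental cells and 4.71 to 7.06 CPM per kb in the clones. In parental cells the per-length order was TNS4, PHLDB2, PHLDB3 and PHLDB1, and in every clone PHLDB3 and PHLDB1 were both above TNS4 and PHLDB2. FAM198A, the paralog of FAM198B, was at 0.05 to 0.45 CPM in all samples, near the limit of detection, and was not tested.

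Of the 4 paralogs, none passed the test against parental cells with all 9 samples, in either genotype. None did so at an unadjusted p under 0.05, which 12.7% and 11.6% of all genes passed, nor with DESeq2. Over all genes, 0.00644% (1 gene, TNS4) passed for DIP2C-/- and 0.0966% (15 genes, TNS4 and FAM198B among them) for DIP2C+/-. Both had been selected, so their passing is no result. DIP2C itself did not pass in edgeR's test, at -1.71 ± 0.25 (adjusted p = 0.0998) and -0.60 ± 0.20 (adjusted p = 0.386). It passed without H9-A4 (adjusted p = 0.00103 and 0.0285). The lack of a call for the paralogs with all 9 samples therefore says little. Without H9-A4, 2.32% of genes were called higher and 2.44% lower in DIP2C-/- clones, and 4.37% and 3.58% in DIP2C+/- clones, and of the 4 paralogs again none was called. TNS1 alone passed an unadjusted p under 0.05 in that fit, in both genotypes, as did 18.7% and 22.3% of all genes. The comparisons of both genotypes with parental cells share the parental samples and are not independent.

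DIP2C+/- and DIP2C-/- clones were compared directly. None of the 4 paralogs passed, with 0.0% of 15532 genes passing. At an unadjusted p under 0.05 no paralog passed either, while 865 genes (5.57%) did, and DESeq2 called 6 genes and no paralog. TNS4, PHLDB2 and FAM198B had been selected for a loss in clones of both genotypes, so their values here are a description and say nothing on whether the loss depends on the number of intact alleles. The log2 difference of DIP2C+/- against DIP2C-/- was 0.17 ± 0.56 (SE) for TNS4, 0.22 ± 0.69 for PHLDB2, 0.99 ± 0.68 for FAM198B, 1.28 ± 0.81 for TNS1, -0.60 ± 0.61 for TNS3, 0.10 ± 0.19 for PHLDB1 and 0.39 ± 0.20 for PHLDB3. Of the paralogs, PHLDB3 had the lowest unadjusted p (0.0751 in edgeR's test), with all 5 DIP2C+/- clones above both DIP2C-/- clones. Its adjusted p of 0.878 was shared with other genes, DIP2C among them, and does not measure closeness to the threshold. With 2 and 5 clones the errors were 0.56 to 0.81 for the tensins, PHLDB2 and FAM198B. Even a difference several times its error could go uncalled. DIP2C itself, at 1.11 ± 0.22, did not pass (adjusted p = 0.878 in edgeR's test), so the lack of a call for the paralogs says little. Without H9-A4 the call rate was 0.0% again, and the values for TNS4 and PHLDB2 turned to -0.29 ± 0.42 and -0.33 ± 0.52.

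Genes whose products work with these scaffolds were then counted in 4 lists, of which 66 genes were tested. They were the tensin partners, the cortical platform of the LL5 proteins, the core of focal adhesions and the Golgi and secretory kinases. With all 9 samples no list gene passed in any comparison. At an unadjusted p under 0.05, 8 of 66 passed for DIP2C-/-, 15 for DIP2C+/- and 2 between the genotypes, which is 12.1%, 22.7% and 3.03% against 12.7%, 11.6% and 5.57% of all genes. DESeq2 called none at an adjusted p under 0.05. Without H9-A4, 7 list genes passed for DIP2C-/- and 11 for DIP2C+/-, all of them tensin partners or focal adhesion genes, against 733 and 1224 of all 15390 genes in that fit.

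Of 8 tensin partners tested, DLC1 and ITGB1 rose in both genotypes without H9-A4 and none fell. The shares of all genes that rose in that fit were 2.32% for DIP2C-/- and 4.37% for DIP2C+/-, and 2.44% and 3.58% fell. DLC1 encodes a protein that binds tensins, and ITGB1 the beta-1 integrin subunit whose tail tensins bind. DLC1 was at 161.3 and 165.8 CPM in parental cells, at 624 to 1022 CPM in 6 clones and at 4.13 CPM in H9-A4. Its log2 difference was 2.47 ± 0.22 in DIP2C-/- clones (adjusted p = 9.9e-05) and 2.34 ± 0.20 in the other DIP2C+/- clones (adjusted p = 5.6e-05), but with H9-A4 2.47 ± 1.35 and 2.02 ± 1.21, which did not pass. ITGB1 was at 593 and 484 CPM in parental cells, at 1013 to 1463 CPM in 6 clones and at 386 CPM in H9-A4. The other 6 genes, TENC1, STARD13, STARD8, CBL, EGFR and MET, did not pass, and the median of the list without H9-A4 was 0.35 and 0.29, against 0.02 and 0.01 over all genes.

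Of 44 focal adhesion genes tested, 4 rose and 1 fell in DIP2C-/- clones and 8 rose and 1 fell in DIP2C+/- clones, without H9-A4. Over all genes in that fit, 2.32% rose and 2.44% fell in DIP2C-/- clones, and 4.37% and 3.58% in DIP2C+/- clones. FERMT3 (kindlin-3, an integrin activator) was at 26.2 and 29.8 CPM in parental cells, at 168.1 to 260.5 CPM in 6 clones and at 0.85 CPM in H9-A4. PXN (paxillin, an adaptor of adhesions) was at 124.3 and 130.5 CPM, at 266.7 to 557 CPM and at 74.1 CPM in the same order. In these genes H9-A4 lay below the parental samples and the other clones above them. Without H9-A4 the differences were 2.62 ± 0.18 and 2.996 ± 0.17 for FERMT3 and 1.16 ± 0.24 and 1.62 ± 0.22 for PXN. ZYX (zyxin) and PTK2 (focal adhesion kinase) also rose in both genotypes, and VASP, SORBS3, GIT1 and CTTN in DIP2C+/- clones. PARVA, an actin-binding partner of integrin-linked kinase, fell by 1.01 and 1.25 on the log2 scale, and was in H9-A4 at 54.2 CPM, next to 56.5 and 56.9 CPM in parental cells. The median of the list was 0.15 and 0.09.

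**Figure D3:**
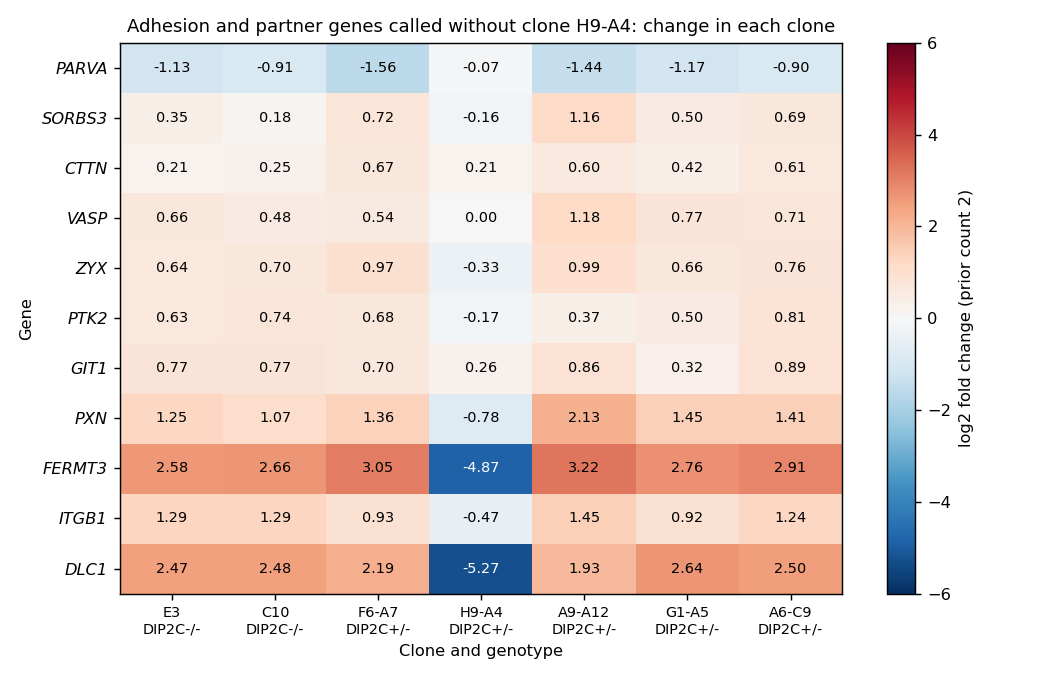
Log2 fold change against the parental mean, from CPM with a prior count of 2, for the 11 tensin partner and focal adhesion genes (rows) that passed the test without H9-A4, in each of the 7 clones (columns). DLC1 and FERMT3 are at 1.93 or more in 6 clones and at -5.27 and -4.87 in H9-A4, and PARVA is near 0 in H9-A4 only.

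Of the 11 genes of the cortical platform none passed in either genotype, with or without H9-A4. Without H9-A4 the median of the list was -0.14 in DIP2C-/- clones and -0.34 in DIP2C+/- clones, against 0.02 and 0.01 over all genes. In that fit 6 and 9 of the 11 differences were negative. Named after their values were seen, the microtubule-binding CLASP2 had adjusted p = 0.055 and KIF21A, a kinesin, adjusted p = 0.0795 for DIP2C+/- clones without H9-A4, at -0.63 ± 0.18 and 0.57 ± 0.18, and 4 of 11 passed an unadjusted p under 0.05, as did 22.3% of all genes in that fit. The liprin PPFIBP1 was below both parental samples in every clone, at 70.7 to 89.4 CPM against 108.5 and 99.3 CPM, at an adjusted p of 0.156 in edgeR's test of DIP2C+/- clones without H9-A4. Of 3 Golgi and secretory kinases tested (FAM20A, FAM20B and FJX1) none passed, and none had an unadjusted p under 0.05. FAM198A and FAM20C were too low to be tested.

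The genes next to TNS4, PHLDB2 and FAM198B on the chromosome were examined by a rule chosen after values had been seen, as the 5 nearest tested genes on each side. None of the 10 neighbours of any of these genes was at least 4-fold lower in all 7 clones. Next to TNS4, TOP2A, which encodes a topoisomerase of dividing cells and lies 57.9 kb away, was below both parental samples in every clone, by 0.49 to 1.30 on the log2 scale. SMARCE1, the nearest gene on the other side at 123.3 kb, ranged from -0.43 to 0.28. Next to PHLDB2, ABHD10 at 2.5 kb had a median of -0.04, C3orf52 at 109.8 kb ranged from -6.66 to 0.25, and GCSAM at 144.3 kb from -2.78 to -0.43, below both parental samples in every clone. In the 6 clones other than H9-A4, both C3orf52 (-6.66 to -2.24) and GCSAM (-2.78 to -2.08) were at least 4-fold lower than the parental mean, as were 0.515% of all genes. Next to FAM198B, TMEM144 at 28.3 kb ranged from -0.64 to 0.84 and the medians of all 10 neighbours were -0.47 to 1.81.

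The genes with the most similar profiles over the 9 samples were ranked by Pearson's r of log2 CPM, among 10646 or 10647 other genes whose mean was 5 CPM or more. For TNS4 these were SLC23A2 (0.984), MCM8 (0.962), RRP15 (0.957), LYPD6 (0.951) and ZNF217 (0.948), with a mean log2 fold change over clones from -2.60 for RRP15 to -0.36 for MCM8. For PHLDB2 they were DLG1 (0.981), ARHGAP5 (0.975), CABLES1 (0.971), TAX1BP1 (0.971) and MLLT3 (0.966). For FAM198B they were SOWAHC (0.961), FAM20B (0.959), HIBCH (0.946), SCML1 (0.932) and RUNX1 (0.925). In this design r is mostly set by the gap between the 2 parental samples and the clones, and the genes compared were measured in the same libraries. All 15 genes were less reduced than the gene they resembled.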

How the data were processed

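RNA of 9 samples had been sequenced on the Ion Proton system, aligned to hg19 with TopHat2 2.0.4 and quantified with Cufflinks by the authors. What the authors deposited is 1 estimated count per gene and sample, often not whole. In each sample 98.8% to 99.0% of the low values were whole multiples of 1 step (within 0.1 of a step), 0.711 to 1.11 on the deposited scale, so the values differ from reads by a constant per sample and the precision that a count test assumes is off by that factor. Fits were repeated on values brought back to whole reads with this step. Whole counts had been assumed when the tests were planned, and rounding was used. How the authors wrote these values, and whether counting used strand, is not given in the sources used here.

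Genes were kept by edgeR's filterByExpr, TMM-normalised and fitted as 3 genotype means over all 9 samples in edgeR 4.0.16 (R 4.3.3), with the quasi-likelihood F test and Benjamini-Hochberg adjustment over all genes tested. A gene was called at an adjusted p-value under 0.05. SE was taken as the absolute log2 fold change over the root of its F statistic. Single clones were compared with the parental mean on log2 CPM (prior count 2) without a test. DESeq2 1.42.0, other scaling, other filters, fits of fewer samples and a prior count of 0.5 were alternatives, and the edgeR fit was tested on simulated counts. No 2 samples of a genotype agreed within sampling noise (chi-square per degree of freedom 18.0 to 117.7).

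The members and lists were chosen with earlier results of these data known, and the neighbour rule and the second transcript length after seeing values. Genes named are the members, DIP2C, the genes called in each list (at most 6 by size of change; GIT1, CTTN, CLASP2, KIF21A, PPFIBP1, neighbours and genes lost in all clones were named after their values were seen) and the 5 most correlated genes of each selected member. Positions and lengths are from GENCODE 44 on GRCh37, and start windows from RefSeq on GRCh38.p14. The labels name no batch.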

Additional observations from a re-analysis of the deposited data

Results flagged for a closer look

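Among the 5 DIP2C+/- clones, the highest or lowest sample was compared with the others by Dixon's test for 19 genes, and 2 genes had a sample far from the rest. Chance alone marks about 1 in 20 groups where genes are not chosen by their values. The list genes among the 19 were taken because they passed only in the fit without H9-A4. That choice favours a far value of H9-A4, so the rate does not hold for them. FAM198B was at 1.33 CPM in G1-A5, against 0.34 to 0.59 CPM in the other 4 clones, and on 31 reads. FERMT3 was at 0.849 CPM in H9-A4, against 190.1 to 260.5 CPM in the other 4 DIP2C+/- clones. For TNS1 and PHLDB2, H9-A4 was also the highest of the clones, at 24.2 and 10.9 CPM, without passing this test.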

How the results depend on the processing

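Of 327 values of member changes under an alternative, 317 were rated the same, 1 moved, 1 passed the threshold that it had not passed and 8 turned direction. For the paralogs, and for all members between the genotypes, the same meant an unchanged direction and side of the threshold. TNS4, PHLDB2 and FAM198B were held to no threshold against parental cells. There the same meant an unchanged direction and a shift below the SD of log2 CPM between clones of that genotype. The log2 differences of TNS4, PHLDB2 and FAM198B against parental cells stayed negative in all alternatives. FAM198B moved to -5.49 for DIP2C-/- without E3. With 1 sample left out the DIP2C-/- values ranged from -9.07 to -7.95 for TNS4, -4.94 (without C10) to -3.21 (without E3) for PHLDB2 and -5.49 to -3.85 for FAM198B. The sign turned without a single sample in 4 tests of TNS3 and 4 descriptive values of TNS4 and PHLDB2, given with the ranges. With 1 sample left out, TNS3 ranged from -1.53 (without E3) to 0.88 in DIP2C-/- against parental cells, and was -0.29 without parental sample 2. In DIP2C+/- against parental cells TNS3 ranged from -0.85 to 0.08 (without parental sample 1). Between DIP2C+/- and DIP2C-/-, TNS3 ranged from -1.33 to 1.07 (without E3), TNS4 from -0.30 (without C10; -0.29 without H9-A4) to 0.82, and PHLDB2 from -0.38 (without E3; -0.33 without H9-A4) to 1.36. TNS4, TNS3 and FAM198B gave no value with at least 10 counts in every sample, which they do not reach.

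The number of genes called depended strongly on the samples and the tool. For DIP2C-/- against parental cells it was 1, and 3 without a filter, 0 with at least 10 counts in every sample, 1807 with only the compared groups, 295 with DESeq2 and 1 to 733 with 1 sample left out, with the highest count without H9-A4. Of the 4 paralogs 1 (TNS1) was called with only the compared groups, and of the lists 12 genes, against 0 to 7 with 1 sample left out. For DIP2C+/- it was 15, and 8 with at least 10 counts, 8 with only the compared groups, 191 with DESeq2 and 1 to 1224 with 1 sample left out, the highest again without H9-A4, where 0 to 11 list genes were called. Between the genotypes it was 0, and 1 with only the compared groups, 6 with DESeq2 and 0 to 3 with 1 sample left out. The biological coefficient of variation was 0.297 with all samples and 0.242 without H9-A4. A transcript length of all exons gave TNS4 95.5% of the tensin level in parental cells in place of 94.0%, and PHLDB2 48.5% in place of 44.2%. In the clones PHLDB3 held 64.3% to 74.4% of the PHLDB level by that length, in place of 48.5% to 60.4%. PHLDB1 held 19.1% to 32.3%, in place of 32.9% to 50.1%, so these shares depend on the length used. No paired analysis was possible because the labels give no replicate numbers shared between the genotypes.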
